A study of Mus musculus with 19 samples.

Results

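The 10 genes described here encode the cytokines, receptor chains and intracellular relay of the IL-24 family and oncostatin M pathway. They are 4 ligands (Il19, Il20, Il24 and Osm), 4 receptor chains (Il20ra, Il20rb, Il22ra1 and Osmr), the transcription factor Stat3 and its feedback inhibitor Socs3. They were taken by gene symbol from the 34807 genes of the count table. The list was not blind, since earlier results of these data were known when it was chosen. All 10 passed the filter on low counts, which asked for at least 5 counts in at least 1 library. Bulk RNA sequencing covered 15 skin tumours and 4 samples of normal skin, all from female mice on a C57BL/6J background. BRAFV600E, a constantly active form of the MAPK pathway kinase BRAF, had been switched on in mice 7 to 20 weeks old by a tamoxifen-inducible Cre recombinase (CreERT2). Cre was driven by the involucrin promoter in the Ivl group (6 tumours), by the Krt5 promoter in the K5 group (5 tumours) and by the Krt14 promoter in the K14 group (4 tumours). Involucrin marks committed and differentiating keratinocytes, whereas keratins 5 and 14 mark basal keratinocytes. The NormalSkin group (4 samples) was wild type. Per the methods of the study, the Ivl line received topical tamoxifen and the K5 and K14 lines topical 4-hydroxytamoxifen, so the inducing agent and the cell of origin cannot be told apart. The study also reports a much longer latency to tumour onset in its Ivl model than in its K5 and K14 models. Tumours were taken at clinical endpoint, so time since induction cannot be told apart from origin either. The labels call the tumours squamous cell carcinoma. The 10 keratinocyte markers summed to between 45948 and 113113 CPM (counts relative to library size, with TMM scaling) in Ivl tumours, between 62074 and 101181 CPM in K5 and K14 tumours, and between 9469 and 16710 CPM in normal skin, with no marker at 0. The mutation itself cannot be read from gene counts.

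IL-19, IL-20 and IL-24 are cytokines of the IL-10 family that act mainly on epithelial cells. All of them bind the receptor pair of the IL-20RA and IL-20RB chains, and IL-20 and IL-24 also bind IL-22RA1 paired with IL-20RB. Oncostatin M belongs to the IL-6 family and signals through OSMR paired with gp130. Both kinds of receptor activate JAK kinases, which phosphorylate STAT3, and STAT3 switches on Socs3, whose product blocks the receptor complex. In epidermis these cytokines are known from wound repair and psoriasis, where keratinocytes divide more and mature in an altered way. Phosphorylation is not seen in RNA, so the data hold the transcripts of the pathway and not its activity. In bulk tissue, fewer cells of a type and less RNA per cell cannot be told apart.

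Il24 (chr1:130882074-130887454, minus strand), Il20 (chr1:130906985-130911451, minus strand) and Il19 (chr1:130932656-130940115, minus strand) lie next to each other on mouse chromosome 1 (build GRCm38). Stretches before the RefSeq start of 2 members are shown because both genes rose in tumours together with Il24 and both hold the letters of a STAT motif. Each is read 5′ to 3′ on the gene's strand and overlaps no annotated exon of the gene, and capitals mark the motif. The Il19 stretch lies before the start of the gene, whereas the Socs3 stretch lies before the start of its coding transcript and inside an intron of a longer non-coding transcript of Socs3. The Il19 stretch is chr1:130940116-130940365 and the Socs3 stretch is chr11:117969452-117969616, both on the minus strand (RefSeq, GRCm38.p6). The last base shown lies 1 base before the RefSeq start for Il19 and 86 bases before it for Socs3.
Il19: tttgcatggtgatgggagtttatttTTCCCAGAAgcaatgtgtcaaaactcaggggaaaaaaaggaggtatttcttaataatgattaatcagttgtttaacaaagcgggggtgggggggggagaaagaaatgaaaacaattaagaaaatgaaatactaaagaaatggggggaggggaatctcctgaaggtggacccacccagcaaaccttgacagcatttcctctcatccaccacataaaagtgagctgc
Socs3: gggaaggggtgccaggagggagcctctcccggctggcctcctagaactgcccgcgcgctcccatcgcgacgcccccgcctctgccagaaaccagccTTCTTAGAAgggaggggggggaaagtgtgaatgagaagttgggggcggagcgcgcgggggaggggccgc
RefSeq start sites were given for 8 of the 10 members, not for Il24 or Osm. The 250 bases before each start were searched on both strands for the STAT letters TTCNNNGAA and for the AP-1 letters TGACTCA, which share no overlap in these windows. The STAT letters were in 2 of the 8 windows, starting 225 bases before the Il19 start and 154 bases before the Socs3 start. They were in 7.02% of all 32851 windows of the same length. The AP-1 letters were in 1 of the 8, the Il20ra window, against 4.46% of all windows. A match is a description of the letters only.

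Libraries differed in ways that the groups do not explain. Totals ran from 45715309 to 72609771 counts per library. Since the authors had adjusted the table for a sequencing batch that the labels do not give, every set of 4 libraries was scanned for a trace of it. The set of Ivl 1, Ivl 2, Ivl 3 and K5 1 stood apart. Of 13954 genes, 96.6% had a set mean and a mean of the remaining 15 libraries that differed by less than 0.1 log2, against 64.1% for the next set. The tests of members are therefore also given within those 15 libraries (3 Ivl, 4 K5, 4 K14 and 4 NormalSkin), and so are the counts of gene lists where they differ. The set holds no skin library, whereas the 15 hold all 4. Over all genes, the median log2 difference of Ivl tumours from skin was -0.46 with the set and -0.66 without it. For K5 and K14 tumours together it was -0.60 and -0.64. The part of the matched means in these values was not tested. Libraries also differed in kind, between skin and tumours and among the tumours. Rn7sk, a small RNA without a poly(A) tail, stood at 2279 to 3276 CPM in normal skin. It was at 2.12 to 1283 CPM in Ivl, 2.36 to 10.1 CPM in K5 and 6.63 to 11.8 CPM in K14 tumours. In skin libraries 3242 to 3670 genes were at 0, against 5562 to 10055 in Ivl, 6623 to 10882 in K5 and 8034 to 10329 in K14 tumours. The part of library kind in the differences from skin and between origins was not tested.

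The tumours held far more ligand RNA than normal skin. All 4 ligands rose in Ivl tumours and in the merged K5 and K14 tumours (9 libraries, K5/K14), and Il24 rose most. Il24 and Il20, with 1 and 0 counts over the skin group, passed the filter on low counts through tumours alone. Against skin they could therefore be called higher but not lower, which limits what their calls add to the counts below. Over all 10 members, 6 were higher in Ivl tumours by edgeR's quasi-likelihood test (adjusted p under 0.05), namely the 4 ligands, Stat3 and Socs3, beside 20.4% of all 32031 genes tested. None of the 10 was lower, beside 15.5% of all genes. In K5/K14 tumours 7 members were higher, the same 6 and Il22ra1, beside 23.2% of all genes, and 1 was lower, Il20ra, beside 38.9%. Outside the set of 4, the calls were the same, 6 higher and 0 lower in Ivl tumours (22.2% and 32.7% of all genes) and 7 higher and 1 lower in K5/K14 tumours (23.9% and 42.3%). Over all genes tested the median log2 difference from skin was -0.46 in Ivl and -0.60 in K5/K14 tumours. With DESeq2's size factors in place of TMM these medians moved to -0.59 and -0.71, and the share of calls that were higher moved from 56.8% to 45.6% in Ivl and from 37.4% to 33% in K5/K14 tumours. No call of a member against skin changed with that scaling.

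**Figure D1:**
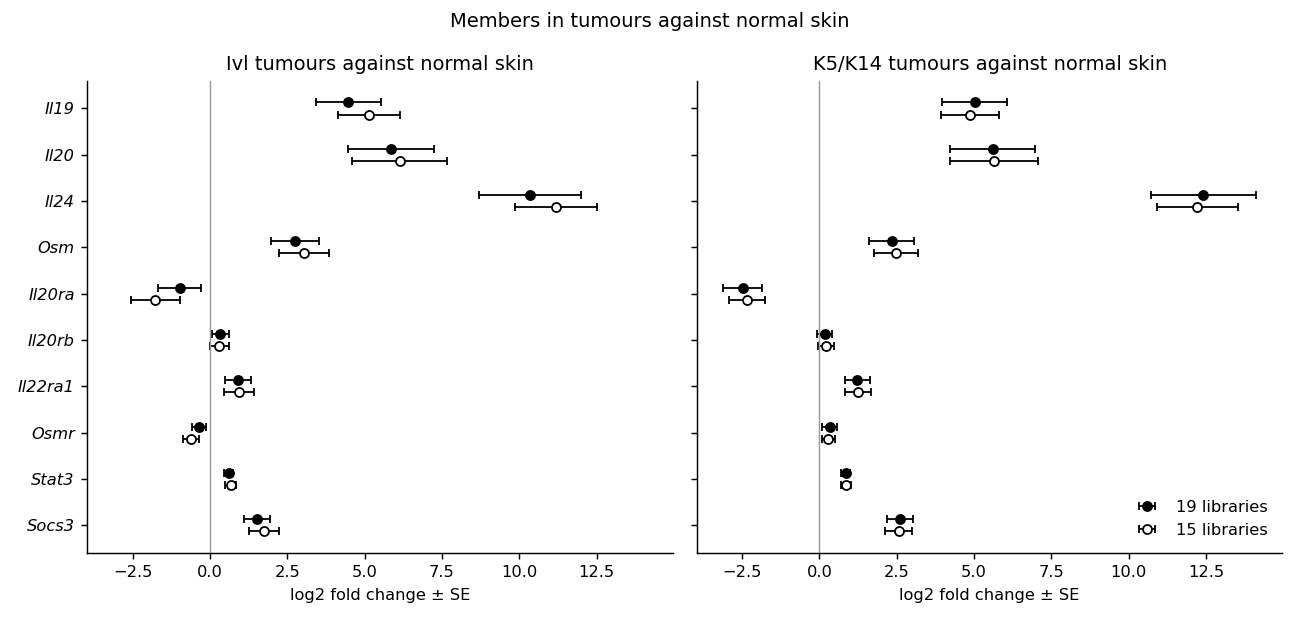
Log2 fold change against normal skin (horizontal axis, ± standard error) of each of the 10 members in Ivl tumours (left) and K5/K14 tumours (right); filled points come from all 19 libraries and open points from the 15 outside the set of 4. Il24, Il20 and Il19 lie farthest to the right, with Il24 at 10.34 and 12.41, Osm and Socs3 lie close together in K5/K14 tumours (2.34 and 2.62), and Il20rb and Osmr lie near 0.

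Il24 encodes a cytokine that signals to keratinocytes through both receptor pairs. In normal skin it had 1 count in NormalSkin 3 and 0 in the other 3 libraries. In K5 tumours it stood at 50.1, 20.5, 19.1, 44.7 and 52.0 CPM (K5 1 to K5 5), and in K14 tumours at 11.2, 2.60, 13.4 and 18.9 CPM (K14 1 to K14 4). The 6 Ivl tumours ran from 0.384 through a median of 3.14 to 22.3 CPM. Every tumour was above every skin library, and the 3 lowest tumours were Ivl libraries of the set of 4, with 25, 149 and 47 counts. Against the single count in skin, the summed counts scaled by library size gave a ratio of 1945 in Ivl tumours (exact 95% interval 349 to 76883), 4373 in K14 tumours (784 to 172820) and 14486 in K5 tumours (2599 to 572217). The intervals cover counting error only. The fitted log2 fold change was 10.34 ± 1.65 (SE, adjusted p = 1.0e-04) in Ivl tumours, and 12.41 ± 1.70 (adjusted p = 1.4e-05) in the K5/K14 group. Outside the set of 4 it was 11.19 ± 1.33 and 12.22 ± 1.31.

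Il19, whose product uses the IL-20RA and IL-20RB pair alone, rose less from a higher start. It stood at 0.105, 0.0899, 0.497 and 0.234 CPM in the 4 skin libraries. K5 tumours held 13.6, 9.62, 5.89, 4.64 and 21.8 CPM, and K14 tumours 4.89, 1.43, 2.08 and 5.09 CPM. Ivl tumours ran from 0.429 through a median of 3.05 to 19.2 CPM, so the lowest of them, Ivl 3, fell within the range of skin, whereas all 9 K5/K14 tumours were above it. The log2 fold change was 4.48 ± 1.04 (adjusted p = 0.0026) in Ivl tumours, and 5.03 ± 1.05 (adjusted p = 6.2e-04) in the K5/K14 group. It was 5.15 ± 1.01 and 4.87 ± 0.94 within the 15 libraries. In both origins the highest library, Ivl 5 and K5 5, was also the highest for Il24.

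Il20, the cytokine that names the receptor chains, was barely transcribed. It had 0 counts in all 4 skin libraries, at most 12 counts in any tumour, and 0 in Ivl 6 and K14 3. The counts were 4, 12, 1, 12, 9 and 0 in Ivl tumours, 4, 5, 4, 7 and 1 in K5 tumours, and 9, 1, 0 and 11 in K14 tumours. Against a floor of 3 counts over the skin group, Ivl tumours were at least 14.1-fold higher, and for the K5/K14 tumours the bound was at least 12.5-fold higher. The test called it in both (adjusted p = 0.004 and 0.0025), but its fitted fold change depends on the prior count. It was called within the 15 libraries as well (adjusted p = 0.0051 and 0.004). Its mean level was 0.120 ± 0.107 CPM in Ivl tumours (SD, n = 6) and 0.0999 ± 0.0803 CPM in K5/K14 tumours (SD, n = 9), levels that overlapped.

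Osm (chr11:4236420-4241026, plus strand), which is made mainly by myeloid and T cells, was low throughout. Normal skin held 0.0396, 0.0787, 0.525 and 0.419 CPM. K5 tumours held 0.302, 0.582, 2.08, 1.70 and 0.972 CPM, and K14 tumours 2.17, 0.277, 2.92 and 1.29 CPM. Ivl tumours ran from 0.523 through 1.90 to 3.16 CPM, and their lowest library, Ivl 1, fell just within the range of skin. The lowest tumours, K14 2 and K5 1, also lay inside that range. The log2 fold change was 2.76 ± 0.78 (adjusted p = 0.0096) in Ivl tumours, and 2.34 ± 0.73 (adjusted p = 0.0103) in the K5/K14 group. Within the 15 libraries it was 3.04 ± 0.80 and 2.47 ± 0.71. Some neutrophil markers also rose. Counts of cell markers stand beside 20.4% of all genes higher and 15.5% lower in Ivl tumours, and 23.2% and 38.9% in K5/K14 tumours. Within the 15 libraries the shares were 22.2% and 32.7% in Ivl tumours, and 23.9% and 42.3% in K5/K14 tumours. Of 9 markers, 4 rose in Ivl and 5 in K5/K14 tumours and none fell, with Cxcr2, the chemokine receptor of neutrophils, up by a log2 of 4.75 (adjusted p = 2.8e-06) and Mmp8, a granule collagenase, up by 3.36 (adjusted p = 4.6e-04) in K5/K14 tumours. Without the set of 4 libraries, 3 neutrophil markers rose and 1 fell in Ivl tumours (Camp, -4.27, adjusted p = 0.031), and 6 rose in K5/K14 tumours. The sum of the neutrophil markers ran from 4.70 to 45.7 CPM in skin, where Ly6g was at 0 in every library, from 15.9 to 115 CPM in Ivl, from 134 to 397 CPM in K5 and from 99.5 to 498 CPM in K14 tumours. Of the 10 macrophage and monocyte markers, none passed in Ivl tumours, and in K5/K14 tumours 1 rose (Cd14, 1.27, adjusted p = 0.0299) and 1 fell (Ccr2, -1.86, adjusted p = 0.0177). In the fit to 15 libraries Mrc1 fell in Ivl tumours (-1.88, adjusted p = 0.0485), and 1 rose and 4 fell in K5/K14 tumours. The macrophage sum ran from 110 to 1485 CPM in skin and from 131 to 957 CPM in Ivl, 251 to 583 CPM in K5 and 228 to 510 CPM in K14 tumours, with none at 0. Of the 10 T cell markers, none passed in Ivl and 7 fell in K5/K14 tumours, among them Cd3e, a chain of the T cell receptor complex (-2.66, adjusted p = 2.4e-04). Cd3e fell in Ivl tumours as well once the set of 4 was left out (-1.91, adjusted p = 0.0077). The T cell sum ran from 9.24 to 48.2 CPM in skin, 4.70 to 29.9 CPM in Ivl, 4.43 to 18.0 CPM in K5 and 7.45 to 19.3 CPM in K14 tumours, with none at 0. The part of these cells in the Osm level was not tested.

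**Figure D2:**
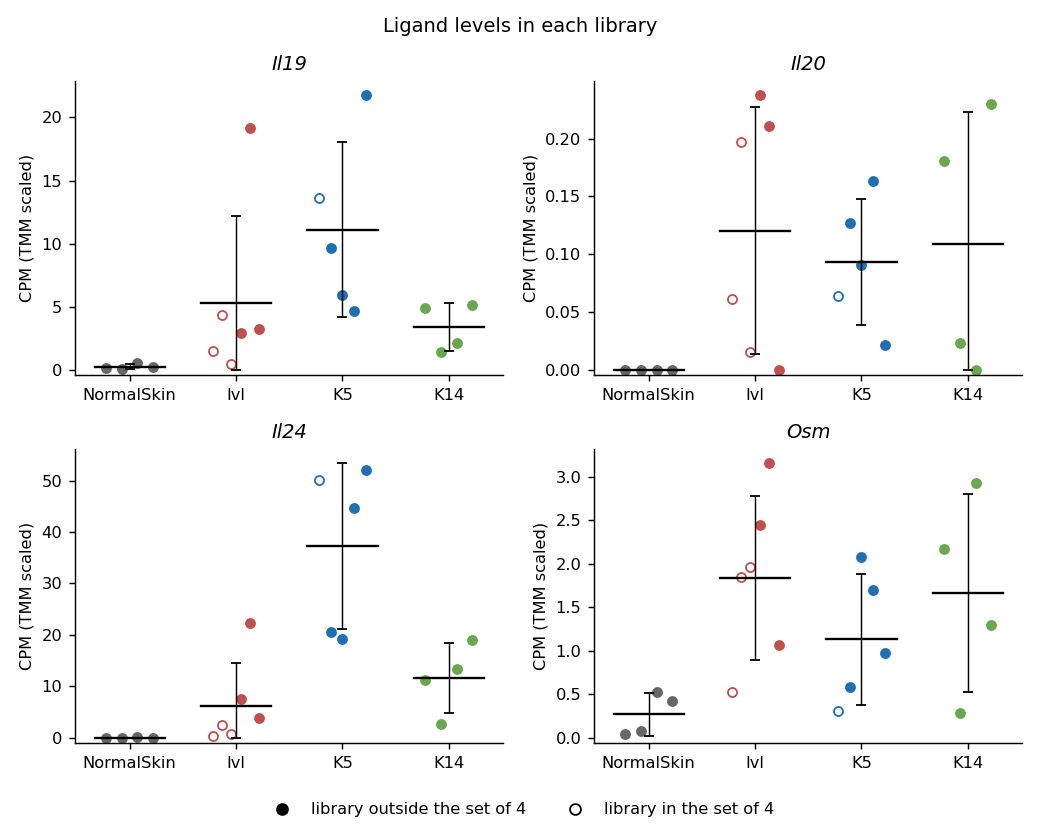
Level of each ligand (CPM, TMM scaled, linear axes that start near 0) in each library by group; points are libraries, open points the set of 4, horizontal lines the group means and bars ± 1 SD, cut off at 0. Il24 lies between 19.1 and 52.0 CPM in K5 tumours and at or next to 0 in normal skin, and no Il20 point is above 0.238 CPM.

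Most receptor chains did not rise with their ligands. None of the 4 passed the test in Ivl tumours, and in K5/K14 tumours Il20ra fell and Il22ra1 rose. Il20ra (chr10:19712570-19760053, plus strand), the chain that IL-19 cannot do without, stood at 4.25, 17.9, 9.42 and 7.35 CPM in skin. It was at 0.508, 0.608, 0.880, 1.75 and 0.518 CPM in K5 tumours and at 3.18, 5.42, 0.719 and 2.23 CPM in K14 tumours. All 5 K5 tumours were thus below all skin libraries, while K14 2 lay within the range of skin. The fall from skin was a log2 of -2.47 ± 0.63 in K5/K14 tumours (adjusted p = 0.0027) and -2.35 ± 0.58 within the 15 libraries (adjusted p = 0.0026). In a fit with 4 groups it was -3.51 ± 0.68 for K5 (adjusted p = 4.8e-04) and -1.75 ± 0.69 for K14 tumours (adjusted p = 0.0455). Ivl tumours ran from 1.54 through 3.39 to 14.6 CPM, with a difference from skin of -0.98 ± 0.70 that did not pass (adjusted p = 0.255), and -1.77 ± 0.79 within the 15 libraries (adjusted p = 0.0688). The library at 14.6 CPM was Ivl 1, one of the set of 4.

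Il22ra1 (chr4:135728172-135752140, plus strand), which serves IL-22 as well as IL-20 and IL-24, stood at 7.73, 20.6, 13 and 7.18 CPM in skin. It was at 24.3, 31.5, 20.7, 12.5 and 19 CPM in K5 tumours and at 15.9, 31.8, 56.6 and 43.8 CPM in K14 tumours. The groups overlapped, with NormalSkin 2 above 3 of the 9 tumours. The rise in K5/K14 tumours was 1.23 ± 0.40 (adjusted p = 0.0134), and it no longer passed without NormalSkin 1 (1.06, adjusted p = 0.0508), without NormalSkin 4 (1.03, adjusted p = 0.0511) or for K5 tumours alone (0.83 ± 0.40, adjusted p = 0.0811). For K14 tumours alone it was 1.61 ± 0.42 (adjusted p = 0.0062). In Ivl tumours, which ran from 9.40 through 26.5 to 31.5 CPM, the difference of 0.92 ± 0.42 did not pass (adjusted p = 0.0869). Within the 15 libraries the differences were 1.25 ± 0.41 in K5/K14 (adjusted p = 0.0156) and 0.95 ± 0.48 in Ivl tumours (adjusted p = 0.107). The Ivl difference did pass without Ivl 3 (1.07, adjusted p = 0.0374) or without NormalSkin 2 (1.29, adjusted p = 0.0367).

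Il20rb (chr9:100457719-100486788, minus strand), the chain shared by the pairs that bind IL-19, IL-20 and IL-24, was the receptor chain with the highest mean per kb of exon in every group. It ran from 34.7 to 93.5 CPM in skin, from 55.8 to 107 CPM in Ivl, from 46.2 to 79.0 CPM in K5 and from 57.6 to 111 CPM in K14 tumours. The differences from skin were 0.34 ± 0.27 (approximate 95% interval -0.19 to 0.86) in Ivl and 0.17 ± 0.25 (-0.32 to 0.65) in K5/K14 tumours, with adjusted p = 0.30 and 0.568. Osmr (chr15:6813577-6874969, minus strand), the chain that binds oncostatin M with gp130, ran from 42.4 to 73 CPM in skin, from 28.9 to 61.5 CPM in Ivl, from 69.4 to 84.1 CPM in K5 and from 37.8 to 88.9 CPM in K14 tumours. Its differences from skin were -0.35 ± 0.24 (-0.81 to 0.12, adjusted p = 0.237) and 0.33 ± 0.23 (-0.11 to 0.78, adjusted p = 0.203). Without the set of 4, Il20rb was at 0.30 ± 0.31 and 0.22 ± 0.25 and Osmr at -0.62 ± 0.26 (adjusted p = 0.0569) and 0.29 ± 0.21. For both chains the tumour and skin ranges overlapped in each origin, and in the fits to 19 libraries a change as large as that fitted for any ligand lay outside these intervals.

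Stat3 (chr11:100885098-100939540, minus strand), the transcription factor at the end of both receptor routes, was abundant and rose modestly. It stood at 76.3, 136, 128 and 156 CPM in skin, at 219, 238, 223, 195 and 230 CPM in K5 tumours and at 212, 229, 215 and 254 CPM in K14 tumours. All 9 K5/K14 tumours were above all skin libraries. Ivl tumours ran from 153 through 191 to 214 CPM, and Ivl 3 lay just below the highest skin library. The log2 fold change was 0.61 ± 0.15 (adjusted p = 0.0043) in Ivl tumours, and 0.85 ± 0.15 (adjusted p = 8.4e-05) in the K5/K14 group. Outside the set of 4 it was 0.67 ± 0.17 and 0.86 ± 0.15. Exons of Stat3 overlap those of Stat5a on the other strand, and since the strand setting of the counting is not given in the sources used here, reads of the shared exons cannot be told apart. Stat5a itself fell in Ivl tumours (-0.84 ± 0.23, adjusted p = 0.0087) and was -0.44 ± 0.21 in K5/K14 tumours (adjusted p = 0.0785, and -0.62 with adjusted p = 0.0014 within the 15 libraries).

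Socs3 (chr11:117966079-117970047, minus strand) encodes the inhibitor that STAT3 induces against its own receptors. It stood at 10.6, 18.7, 17.1 and 20.4 CPM in skin. K5 tumours held 137, 97.6, 93.9, 126 and 173 CPM and K14 tumours 42.1, 38.3, 104 and 112 CPM, while Ivl tumours ran from 29.7 through 36.6 to 99.3 CPM. Every tumour was above every skin library, and the K14 tumours fell into a lower pair and a higher pair. The log2 fold change was 1.52 ± 0.41 (adjusted p = 0.0076) in Ivl tumours, and 2.62 ± 0.42 (adjusted p = 5.2e-05) in the K5/K14 group. It was 1.75 ± 0.49 (adjusted p = 0.0086) and 2.56 ± 0.45 (adjusted p = 2.2e-04) within the 15 libraries.

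**Figure D3:**
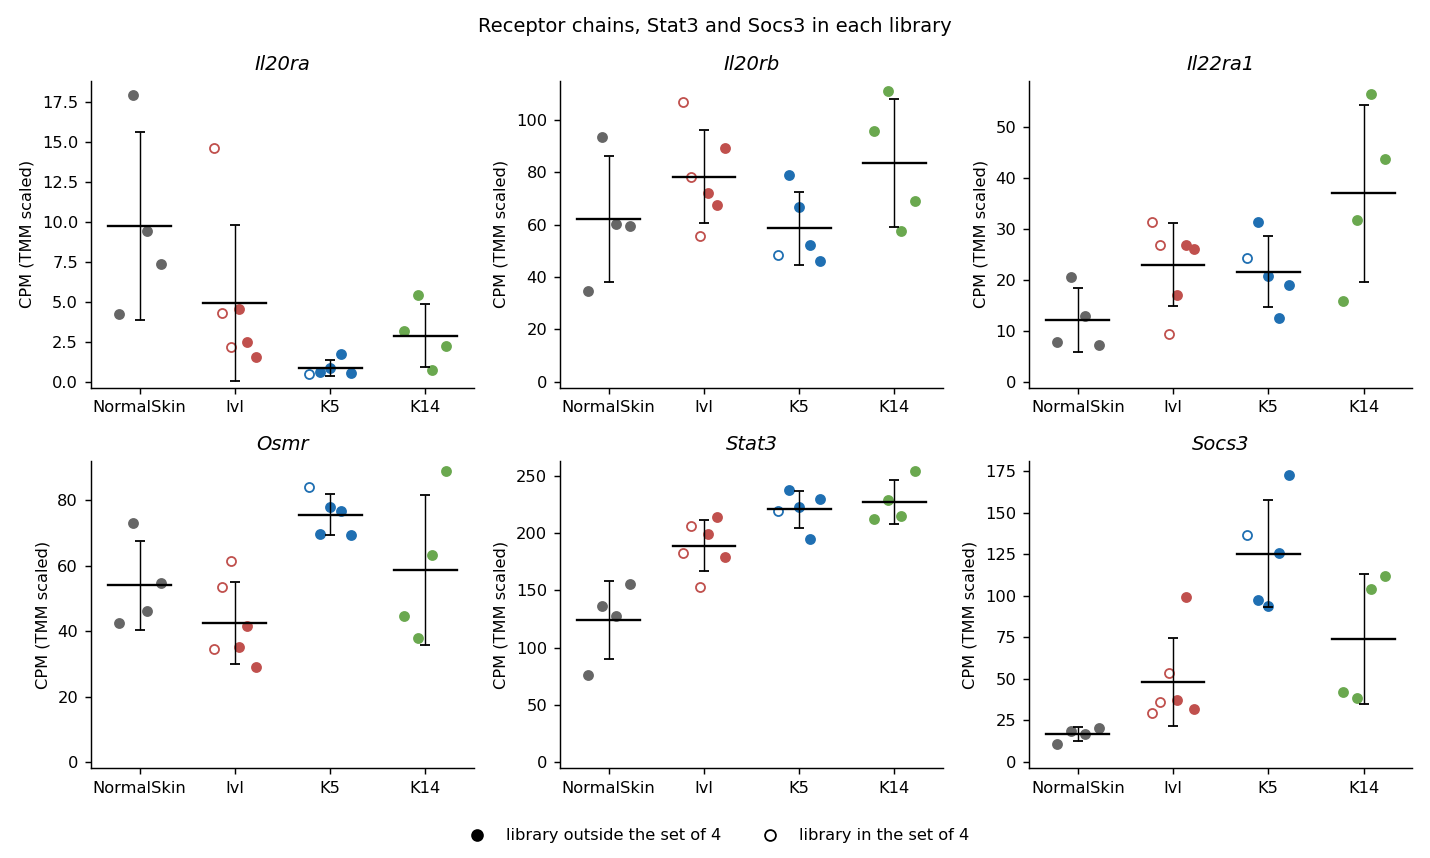
Levels of the 4 receptor chains, Stat3 and Socs3 (CPM, TMM scaled, linear axes that start near 0) in each library by group; points are libraries, open points the set of 4, lines the means and bars ± 1 SD, cut off at 0. Socs3 lies at 10.6 to 20.4 CPM in skin and at 29.7 to 173 CPM in tumours, whereas the Il20rb and Osmr ranges of skin and tumours overlap.

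Counted by libraries without overlap, 2 members, Il24 and Socs3, had all Ivl tumours above all skin samples, beside 13.2% of all genes, and 0 had all of them below, beside 9.01%. In K5/K14 tumours 4 members, Il19, Il24, Stat3 and Socs3, lay wholly above skin (16.7% of all genes) and 0 wholly below (24.6%).

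Per kb of exon length, skin and tumours ordered the members differently. The length was that of all annotated exons of a gene merged, and not that of the transcript expressed. The order between genes depends on that choice and is approximate. In skin, Il20rb (14.8 ± 5.74 CPM per kb, SD, n = 4) and Stat3 (13 ± 3.56) came first, within their spread of each other. Socs3 (5.77 ± 1.49), Il22ra1 (4.73 ± 2.43), Osmr (4.46 ± 1.13) and Il20ra (4.01 ± 2.42) followed, also not apart beyond their spread. All ligands came last, with Il19 at 0.202 ± 0.164 and Osm at 0.117 ± 0.107 CPM per kb. In K5 tumours Socs3 led (43.4 ± 11.2 CPM per kb, SD, n = 5) and was above Il24 (26.9 ± 11.7) in every library. Stat3 (23.2 ± 1.71) followed, within the spread of Il24. Il20rb (13.9 ± 3.32), Il19 (9.69 ± 6.04), Il22ra1 (8.41 ± 2.72) and Osmr (6.24 ± 0.511) came next, each within the spread of its neighbour, and Osm (0.496 ± 0.329) and Il20ra (0.351 ± 0.215) stood at the low end with Il20 (0.0785 ± 0.0463). In K14 tumours Il24 averaged 8.33 ± 4.89 CPM per kb (SD, n = 4), behind Socs3, Stat3, Il20rb and Il22ra1, and Il20ra stood at 1.19 ± 0.810. In Ivl tumours Il24 (4.47 ± 5.99, SD, n = 6) and Il19 (4.57 ± 6.07) were level, and Il20ra stood at 2.04 ± 2.02 CPM per kb.

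Between origins no member passed. Of all genes, 2.36% differed between Ivl and K5/K14 tumours (0.41% within the 15 libraries), and 0 of the 10 members did in either fit. No member, beside 0.656% of all genes, kept the groups apart without overlap. The smallest adjusted p belonged to Osmr (-0.68 ± 0.20 in Ivl relative to K5/K14 tumours, adjusted p = 0.072) and Socs3 (-1.10 ± 0.33, adjusted p = 0.0766), and Il24 stood at -2.07 ± 0.76 (approximate 95% interval -3.56 to -0.57, adjusted p = 0.134). These sizes depended on the libraries used. Within the 15 libraries Il24 was at -1.03 ± 0.72 (adjusted p = 0.651), Socs3 at -0.81 ± 0.45 (adjusted p = 0.551) and Osmr at -0.91 ± 0.24 (adjusted p = 0.127). With the set of 4 as a covariate Osmr passed (-0.87, adjusted p = 0.0436). DESeq2 called Osmr (adjusted p = 0.02), Socs3 (adjusted p = 0.0157) and Il24 (adjusted p = 0.0431). In edgeR, Il24 (-3.12, adjusted p = 0.0324) and Socs3 (-1.44, adjusted p = 0.0209) passed without Ivl 5, and Osmr and Socs3 passed without K14 1 (adjusted p = 0.0388 and 0.036) or without K14 2 (adjusted p = 0.0445 and 0.0475). Il20ra, higher by 1.49 ± 0.58 in Ivl tumours, did not pass (adjusted p = 0.146) and stood at 0.57 ± 0.65 within the 15 libraries.

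Between K5 and K14 tumours edgeR called 0% of all genes and 0 of the 10 members, while 1945 genes had p under 0.05 before adjustment (unadjusted p). The smallest adjusted p was 0.247. DESeq2 called 175 genes, and edgeR 17 within the 15 libraries. In fitted size, K5 tumours were higher in Il24 by 1.69 ± 0.87 (approximate 95% interval -0.01 to 3.4) and in Il19 by 1.72 ± 0.83 (0.08 to 3.36). They were higher in Socs3 by 0.76 ± 0.38 (0.02 to 1.51) and lower in Il20ra by a log2 difference of -1.76 ± 0.65 (-3.04 to -0.48). Adjusted p lay between 0.721 and 0.84. Unadjusted p by the quasi-likelihood test was 0.0683 for Il24, 0.0542 for Il19, 0.0588 for Socs3 and 0.0145 for Il20ra. The intervals rest on a normal quantile and are narrower than this test implies, so those of Il19 and Socs3 leave out 0 all the same. Without the set of 4, these differences were 1.56 ± 0.61, 1.64 ± 0.74, 0.73 ± 0.43 and -1.62 ± 0.60, with adjusted p between 0.398 and 0.586. The intervals are wide, and those of Il24, Il19 and Il20ra over 19 libraries reach beyond 3 log2 units.

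Across the 15 tumours, Il24 varied with Il19 and Socs3. For 6 pairs of members log2 CPM values were correlated, with two-sided permutation tests adjusted over the 6. Il24 and Socs3 gave Pearson's r = 0.83 (adjusted p = 1.2e-04) and Spearman's rho = 0.87 (adjusted p = 2.7e-04). Il24 and Il19 gave r = 0.81 (adjusted p = 6.9e-04) and rho = 0.86 (adjusted p = 2.7e-04), also by permutation. Without the 2 tumours farthest from the median of Il24, r was 0.92 and 0.71. Within the 11 tumours outside the set of 4 it was 0.91 and 0.74, and with each origin centred on its own mean it was 0.63 (permutation, adjusted p = 0.0359) and 0.78 (adjusted p = 0.0052). Il24 and Il20rb ran opposite ways, with r = -0.61 (permutation, adjusted p = 0.0345) and rho = -0.66 (adjusted p = 0.0184), r = -0.85 outside the set of 4 and -0.82 without the 2 farthest tumours. Centred on origin this relation was weaker and no longer passed (r = -0.48, permutation adjusted p = 0.14). Il24 and Il20 (r = 0.26, rho = 0.16), Osm and Osmr (r = 0.00, rho = -0.08) and Osm and Socs3 (r = 0.04, rho = 0.00) showed no detectable relation over the 15 tumours (permutation, adjusted p = 0.523, 0.992 and 0.992 for r, and 0.863, 0.927 and 1 for rho). Without the 2 tumours farthest from the median, their r was 0.12, 0.04 and 0.09. Centred on origin, r was 0.39, 0.36 and 0.44 and did not pass (permutation, adjusted p = 0.187, 0.194 and 0.158). Il20 had at most 12 counts in any tumour, which limits what its correlation can show.

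**Figure D4:**
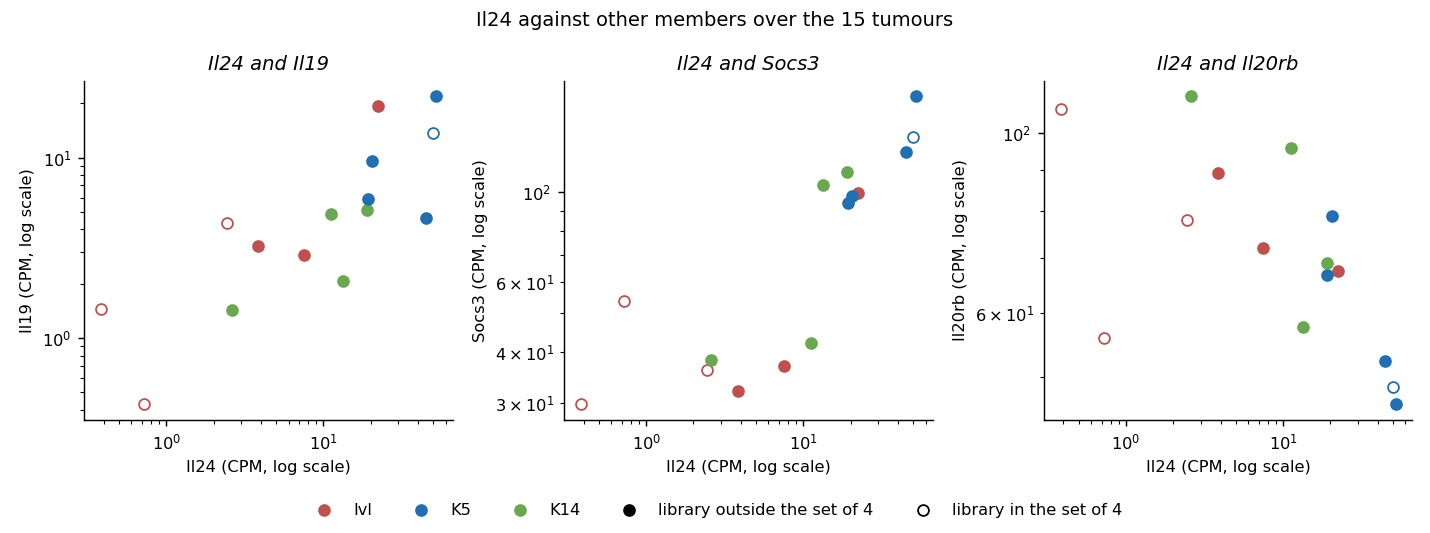
Level of Il19, Socs3 and Il20rb (vertical, CPM, log scale) against Il24 (horizontal, CPM, log scale) in the 15 tumours, coloured by origin, with open points for the set of 4. Socs3 and Il19 climb with Il24 (r = 0.83 and 0.81 on log2 CPM) and Il20rb falls (r = -0.61).

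The genes whose log2 CPM followed Il24 most closely over the 15 tumours, among 14937 with a mean over 1 CPM, were Hbegf (r = 0.96), which encodes a ligand of the EGF receptor, Mcpt2 (0.95), a mast cell protease, Irx3 (0.94), a homeobox transcription factor, Dusp7 (0.94), a phosphatase of ERK, and Kctd11 (0.94). Outside the set of 4 their r was 0.91, 0.90, 0.79, 0.84 and 0.84 over 11 tumours. All points share the library, its scaling and the origin, and the 5 are the top of a ranking and no test. Hbegf averaged 14.8 CPM in skin, 135 CPM in Ivl, 308 CPM in K5 and 155 CPM in K14 tumours, the same order as Il24. Mcpt2 was at 0 in skin and averaged 0.705, 5.78 and 2.29 CPM in Ivl, K5 and K14 tumours. Of the 8 mast cell markers, which do not include Mcpt2, 2 rose (Fcer1a, 3.81, adjusted p = 0.0046, and Hdc, 2.20, adjusted p = 0.007) and 1 fell (Kit, -1.32, adjusted p = 0.0277) in K5/K14 tumours, and 2 rose and 1 fell in Ivl tumours. These counts stand beside 23.2% of all genes higher and 38.9% lower in K5/K14 tumours, and 20.4% and 15.5% in Ivl tumours. The sum of the mast cell markers ran from 11.7 to 180 CPM in skin, 30.1 to 67.0 CPM in Ivl, 37.0 to 235 CPM in K5 and 24.9 to 130 CPM in K14 tumours, with none at 0. Among the members, Socs3 ranked 126th and Il19 ranked 189th in likeness to Il24, Stat3 ranked 984th (r = 0.64, and 0.28 outside the set of 4), and Il20ra was near the other end (r = -0.74, and -0.59 outside the set of 4).

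The genes around the cluster on chromosome 1 did not share the size of the Il24 change. Of 6 listed neighbours, 3 rose in Ivl tumours and none fell (beside 20.4% and 15.5% of all genes). In K5/K14 tumours 4 rose and 1 fell (beside 23.2% and 38.9%). In the fit to 15 libraries Fcamr rose (0.93, adjusted p = 0.0278) and Pigr fell (-2.72, adjusted p = 0.0167) in Ivl tumours too. Fcmr, which encodes the IgM Fc receptor and whose lowest coordinate lies 16.4 kb below that of Il24, rose by 2.52 ± 0.65 (adjusted p = 0.0056) in Ivl tumours, and 3.17 ± 0.65 (adjusted p = 5.0e-04) in the K5/K14 group, from 0.127 ± 0.120 CPM in skin (SD, n = 4) to 0.751 ± 0.380 (SD, n = 6) and 1.17 ± 0.297 CPM (SD, n = 9). Mapkapk2, a kinase downstream of p38, rose by 0.60 ± 0.12 and 0.78 ± 0.12, and Dyrk3, a kinase at 245 kb, by 1.64 ± 0.36 and 1.32 ± 0.34. Fcamr, an Fc receptor of IgA and IgM, was at 0.71 ± 0.31 in Ivl tumours (adjusted p = 0.0747) and rose by 0.85 ± 0.29 in K5/K14 tumours (adjusted p = 0.0167), and Pigr, the polymeric immunoglobulin receptor, was the gene that fell (-1.54 ± 0.64 in K5/K14 tumours, adjusted p = 0.0424). Il10, the founding cytokine of the family and the nearest gene on the Il19 side at 138 kb, was at -0.33 ± 0.59 and -0.30 ± 0.55 and did not pass (adjusted p = 0.65 and 0.645), at 0.379 ± 0.321 CPM in skin and 0.303 ± 0.144 and 0.309 ± 0.135 CPM in Ivl and K5/K14 tumours.

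**Figure D5:**
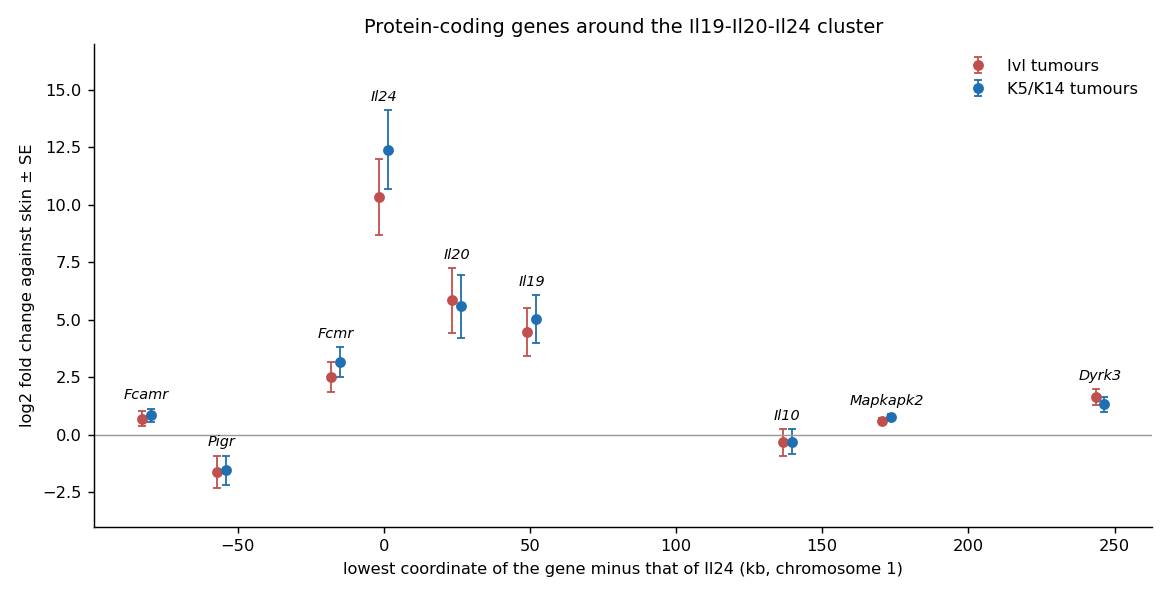
Log2 fold change against normal skin (vertical, ± standard error) of the protein-coding genes around Il24, placed by the distance in kb between the lowest coordinate of each gene and that of Il24, for Ivl (red) and K5/K14 tumours (blue), all 19 libraries; non-coding genes are left out. Il24 stands highest, at 10.34 and 12.41, next to Il20 and Il19, and Il10 lies near 0.

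The rest of the pathway was read from lists of genes. Counts in these lists stand beside 20.4% of all genes higher and 15.5% lower in Ivl tumours, and 23.2% and 38.9% in K5/K14 tumours. Within the 15 libraries the shares were 22.2% and 32.7% in Ivl tumours, and 23.9% and 42.3% in K5/K14 tumours. Among the other ligands of the gp130 family, 4 of 8 tested rose in Ivl and 3 of 8 in K5/K14 tumours, and none fell. Clcf1, a cardiotrophin-like cytokine, rose by 2.93 ± 0.47 and 3.76 ± 0.48, Il11 by 1.16 ± 0.35 and 2.55 ± 0.36, and Il6 by 1.91 ± 0.60 and 2.39 ± 0.60 (adjusted p for K5/K14 tumours 5.5e-06, 1.3e-05 and 0.0023). Their receptors went the other way. Of 7 chains, 2 fell in Ivl (6 within the 15 libraries) and 6 fell in K5/K14 tumours, and none rose. Il6st, which encodes gp130, the partner of OSMR, fell by a log2 difference of -0.80 ± 0.28 in Ivl tumours (adjusted p = 0.0295) and -1.03 ± 0.25 in K5/K14 tumours (adjusted p = 0.0019). Lifr, the receptor of leukaemia inhibitory factor, was at -1.66 ± 0.60 and -2.55 ± 0.54 (adjusted p = 0.0403 and 7.3e-04), and Il31ra, which pairs with OSMR to bind IL-31, at -1.81 ± 0.73 and -4.06 ± 0.68 (adjusted p = 0.0604 and 7.3e-05). The median over the 7 chains was -1.29 and -1.36, beside -0.46 and -0.60 over all genes. In the rest of the IL-10 family, Il10rb, a partner chain of IL-22RA1 for IL-22, rose in both (0.71 ± 0.24 and 0.83 ± 0.23, adjusted p = 0.0302 and 0.0047), and Il22ra2, a soluble decoy of IL-22, was at -0.87 ± 0.58 in Ivl tumours (adjusted p = 0.218) and fell in K5/K14 tumours (-1.38 ± 0.52, adjusted p = 0.0277), while the other 3 of 5 tested did not pass. Il10ra, the receptor chain of IL-10, fell in both once the set was left out (-0.97 and -0.72, adjusted p = 0.0488 and 0.0464).

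Of 10 JAK kinases and other STATs, 1 rose and 4 fell in Ivl tumours (1 and 5 within the 15 libraries), and 3 rose and 2 fell in K5/K14 tumours (3 and 5). These counts, and those of the negative regulators below, stand beside 20.4% of all genes higher and 15.5% lower in Ivl tumours. In K5/K14 tumours the shares were 23.2% and 38.9%. Stat6, the factor of IL-4 and IL-13 signalling, rose by 0.93 ± 0.14 and 1.07 ± 0.14 (adjusted p = 4.9e-05 and 4.2e-06), which is more than Stat3 in fitted size. Jak1, a kinase used by both receptor families, was at 0.31 ± 0.16 in Ivl tumours (adjusted p = 0.125) and rose by 0.47 ± 0.15 in K5/K14 tumours (adjusted p = 0.0118). Stat5b (-0.47 ± 0.18 and -0.63 ± 0.16, adjusted p = 0.0481 and 0.0031) and Stat2 (-0.74 ± 0.25 and -0.63 ± 0.23, adjusted p = 0.0264 and 0.0216) fell in both. Of 15 other negative regulators, 7 rose and 0 fell in Ivl tumours (7 and 1 within the 15 libraries, where Socs2 was at -1.37, adjusted p = 0.0162), and 7 rose and 4 fell in K5/K14 tumours. Ptpn1 and Ptpn2, phosphatases of JAKs and STATs, rose by 1.38 ± 0.19 and 0.66 ± 0.14 in K5/K14 tumours, and Socs5 by 1.15 ± 0.21 (adjusted p = 8.5e-06, 8.7e-04 and 1.8e-04). Pias4 rose by 0.55 ± 0.08 (adjusted p = 2.3e-05).

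Of 24 genes known as STAT3 targets, 16 rose and 0 fell in Ivl tumours (beside 20.4% and 15.5% of all genes). In K5/K14 tumours 18 rose and 2 fell (beside 23.2% and 38.9%). Within the 15 libraries 17 rose and 2 fell in both. The 2 that fell were Lrg1 (-2.12 in Ivl, adjusted p = 0.0171, and -1.97 in K5/K14 tumours, adjusted p = 0.0028) and Steap4 (-2.43, adjusted p = 0.0064, and -2.87, adjusted p = 1.1e-04). The median over the list was 1.01 in Ivl and 1.29 in K5/K14 tumours, beside -0.46 and -0.60 over all genes. Junb, a component of AP-1, rose by 1.95 ± 0.30 and 2.50 ± 0.30, Hif1a, the hypoxia factor, by 1.88 ± 0.24 and 1.96 ± 0.24, Cebpb, a transcription factor of inflammation and keratinocyte maturation, by 1.42 ± 0.18 and 1.46 ± 0.17, and the kinase gene Pim1 by 1.21 ± 0.19 and 1.44 ± 0.19 (edgeR, adjusted p from 2.7e-06 to 5.3e-06 in K5/K14 tumours). Many of these genes also answer to other pathways, MAPK among them, and the list does not tell these apart. Of 17 epidermal genes known to respond to IL-20, IL-22 or oncostatin M, 15 rose in Ivl and 16 in K5/K14 tumours, and none fell, with a median of 4.70 and 4.73. Keratins of stressed and wounded epidermis were among them. Krt6b rose by 6.76 ± 0.81 and 7.27 ± 0.82, Krt16 by 5.42 ± 0.68 and 5.67 ± 0.68, and Krt6a by 4.70 ± 0.60 and 4.65 ± 0.58, though Krt6a and Krt6b are near-identical copies whose reads may be split unevenly. S100a8, a calcium-binding alarmin of neutrophils and stressed keratinocytes, rose by 6.52 ± 0.85 and 7.06 ± 0.86 (adjusted p = 2.2e-05 and 4.3e-06). The list also holds Krt1 and Krt10, which are keratinocyte markers as well, and Flg and Lor, maturation genes that IL-20 family cytokines and oncostatin M are known to lower in cultured keratinocytes, and these rose too, Krt10 by 2.81 ± 0.59 and 2.15 ± 0.55 and Flg by 2.66 ± 0.47 and 2.40 ± 0.45. Keratinocyte markers moved with these genes, 8 of 10 higher in Ivl (with Krt15 lower within the 15 libraries, -2.22, adjusted p = 0.0182) and 9 of 10 higher and 1 lower in K5/K14 tumours, among them Krt14 (3.74, adjusted p = 2.1e-06), and their part in the list was not tested.

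Normal skin held other tissues beneath the epidermis. Counts of lower markers stand beside 38.9% of all genes in K5/K14 and 15.5% in Ivl tumours, and beside 42.3% and 32.7% within the 15 libraries. Of 8 skeletal muscle markers, 7 were lower in K5/K14 tumours and none passed in Ivl tumours. Without the set of 4, these counts were 6 lower in K5/K14 tumours and none in Ivl tumours. Their sum ran from 2353 to 7083 CPM in skin, 1.08 to 4209 CPM in Ivl, 1.21 to 157 CPM in K5 and 1.17 to 586 CPM in K14 tumours. Of 8 adipocyte markers, 4 were lower in K5/K14 tumours and none passed in Ivl tumours, with sums of 225 to 898 CPM in skin and 113 to 3521 CPM in tumours. In the fit to 15 libraries 6 were lower in K5/K14 tumours, and in Ivl tumours Lep, Cfd, Lipe and Retn were lower (adjusted p from 0.0078 to 0.026) and Fabp4 was higher (adjusted p = 0.0221). Among 8 fibroblast markers 1 fell (Dcn, -2.36, adjusted p = 0.0112), and among 8 endothelial markers Tie1 and Emcn rose and Tek fell, all in K5/K14 tumours. In Ivl tumours no fibroblast marker passed and Emcn rose (1.54, adjusted p = 0.0423). With 15 libraries Col1a1, Pdgfra, Pdgfrb and Dpt fell in Ivl tumours (adjusted p from 0.0046 to 0.0204), as did Tek (-1.47, adjusted p = 0.0228) beside the rise of Emcn, and 2 fibroblast markers fell in K5/K14 tumours. The fibroblast sum ran from 861 to 18654 CPM in skin and from 1507 to 15176 CPM in tumours, and the endothelial sum from 68.9 to 438 CPM and from 102 to 468 CPM. None of these markers was at 0 in every library of a group. The part of these tissues in the lower receptor levels of tumours was not tested.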

How the data were processed

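RNA was sequenced from 19 fresh frozen samples as poly(A) strand-specific paired-end libraries, 1 library per sample. Per the labels and the study's methods, the authors checked reads with FastQC 0.11.8, trimmed them with TrimGalore, aligned them with HISAT2 2.1.0 to GRCm38, assigned them to genes with featureCounts (Subread 1.6.3) and removed a sequencing batch effect from the table by ComBat-seq. The deposited values are thus estimated counts, whole numbers with no scaling for library size, and the strand setting is not given in the sources used here. The design had assumed plain counts; the same count test was used. Totals per library were 45715309 to 72609771. The labels do not say that samples came from separate animals, so p-values measure the spread between these samples.

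The study's filter (5 counts or more in any 1 library) left 32031 of 34807 genes. Libraries were scaled by TMM, and the test was that of edgeR 4.0.16 under R 4.3.3 (glmQLFit with robust estimation, two-sided quasi-likelihood F test, Benjamini-Hochberg adjustment over all genes tested). Called means an adjusted p under 0.05. All 19 libraries entered each fit, with K5 and K14 merged as in the study, or as 4 groups for K5 against K14. Standard errors come from the fold change and its F statistic. The adjustment for the batch adds an error that none of these contain. Log2 CPM used a prior count of 2, and correlations 100000 resamples. The exact intervals of the Il24 ratios and the floors cover counting error only. The approximate intervals of fold changes were built from these standard errors, so they also hold the spread between libraries. All 37 pairs of libraries of the same group differed beyond sampling noise, with chi-square values of at least 26.3 per degree of freedom. Alternatives were DESeq2 1.42.0, its size factors in edgeR, other filters, each library left out, the 15 libraries, the set of 4 as a covariate and the replicate number as a block. The fit was tested on simulated data. Positions came from GENCODE release M21, where 34694 identifiers matched and 113 did not, and 4 listed genes had no row in the table used here. Named from each list were at most the 4 genes with the smallest adjusted p in K5/K14 tumours that passed, and others where a count is broken down, chosen after their values were seen. The members and gene lists were chosen with earlier results of these data known.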

Additional observations from a re-analysis of the deposited data

How the results depend on the processing

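Of 1059 fold changes of members recomputed under an alternative, 1036 kept their direction and their side of the threshold, 15 changed side in one direction or the other and 8 changed direction. The calls of members against skin that changed were those of Il22ra1. The fold changes that changed direction were each smaller than their SE in the fit to all 19 libraries. Il20rb in K5/K14 tumours against skin ran from -0.03 (without NormalSkin 1) to 0.43 with 1 library left out and was -0.08 with K5 tumours alone. In Ivl against K5/K14 tumours, Il19 was 0.28 within the 15 libraries and Il20 ran from -0.07 (without Ivl 4) to 0.50 with 1 library left out. In K5 against K14 tumours, Il20 ran from -0.65 to 0.39 with 1 library left out (0.11 without K14 1) and was 0.11 with the replicate number as a block, and Stat3 was 0.01 without K14 4. The correlation of Osm and Osmr was 0.06 outside the set of 4, 0.04 without the 2 farthest tumours and 0.36 centred on origin, and that of Il24 and Il20rb was -0.48 centred on origin. The causes were not tested.

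Counts of genes called moved more. Ivl tumours against skin gave 11515 genes and 17566 within the 15 libraries, with 9165 to 14757 when 1 library was left out, and 6 to 7 members. K5/K14 tumours against skin gave 17638 to 20469 genes and 7 to 8 members with 1 library left out. Ivl against K5/K14 tumours gave 756 genes, but 2161 with DESeq2, 449 with the set of 4 as a covariate, 131 within the 15 libraries, and from 127 (without K5 1) to 1328 (without K14 1) with 1 library left out. Its members called were 0, but 3 with DESeq2, 1 with the covariate and 0 to 2 with 1 library left out. K5 against K14 tumours gave 0 genes, but 175 with DESeq2 and 17 within the 15 libraries.

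Replicate numbers recur across groups. Of 25 pairs of libraries with the same number, 9 correlated by over 0.1 in their deviations from the group means (median 0.0178). Of 109 pairs with other numbers, 29 did (median -0.0349), and 2 libraries correlated best with their own number. This check cannot tell whether samples of the same number share more than the number. With the replicate block 7700, 18286, 46 and 0 genes were called in these 4 comparisons. Depth limits Il20, which had at most 12 counts per library, and the Il24 ratios, which rest on 1 count in skin.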
